A study of Homo sapiens with 6 samples.

Results

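The kinesin genes encode motor proteins that walk along microtubules, and the light chains that some of these motors carry. They were read from RNA sequencing of HepG2 cells, a line established from a human liver carcinoma and grown in DMEM, after 48 h in 10 µM oridonin, a plant diterpenoid, or in 0.1% DMSO as the vehicle. There were 3 libraries per treatment, and the labels do not give the DMSO content of the oridonin wells or say whether the 3 wells of a treatment were separate cultures, so p-values measure only the spread between these samples. Members were the protein-coding rows of the deposited log2 FPKM table (FPKM are fragment counts scaled for gene length and library depth) whose symbol begins with KIF and a digit or C, or is KLC1 to KLC4. This gave 42 of the 18404 genes in that table: 12 mitotic kinesins, 19 genes of cargo kinesins (15 motors and 4 light chains), 10 other kinesins and KIF1BP, a kinesin-binding protein (now named KIFBP) that is not itself a motor. KIF2B, KIF4B, KIF19, KIF25 and KIF26A had 0 to 4 counts per library and were not in that table, and the other rows with a matching name were an antisense gene and a pseudogene.

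Kinesins share an ATP-driven motor domain, and most move toward the plus end of the microtubule. In mitosis, several subfamilies build the spindle, move chromosomes and organise the midzone where the cell divides, and their genes belong to the programme that proliferating cells switch on before division. Transport kinesins carry organelles, vesicles and messenger RNA in cells that do not divide as well, with kinesin-1 (KIF5 heavy chains and KLC light chains), kinesin-2 (KIF3 and KIF17) and kinesin-3 (KIF1, KIF13 and KIF16B) as the main carriers.

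Total counts ran from 22250202 to 30739574 per library, and the labels name no molecular identifiers. Hepatocyte markers such as ALB and AFP were expressed in all libraries, with a summed level of 14849 to 17304 CPM (counts scaled to the total of each library) in oridonin libraries and 23803 to 27713 in DMSO libraries. Of the 8 hepatocyte markers, 6 were called lower with oridonin, FGB was called higher (log2 fold change 1.23) and TTR was not called. The 13 immunoglobulin and B cell markers, which this cell line should lack, summed to 45.9, 104 and 104 CPM of total counts in oridonin libraries and to 4.27, 14.3 and 22.3 in DMSO libraries. Of these 13 markers, 10 were tested, with 3 called higher and 1 lower, and MS4A1 was at 0 in all libraries of both treatments. Of the 10 gut epithelial markers, 8 were tested, and 5 were called higher with oridonin (PIGR, OLFM4, LGALS4, MUC2 and CDH17, with log2 fold changes of 1.25 to 3.96) and 2 lower, with a median of 1.37. Their summed level was 333 to 349.7 CPM in oridonin libraries and 418 to 450.2 CPM in DMSO libraries, most of it from VIL1 (297 CPM with oridonin and 388 CPM with DMSO on average), which fell, as did FABP1. The 9 markers of fibroblasts, endothelium and leukocytes summed to 11.6 to 13.9 CPM in oridonin libraries and 6.65 to 8.96 CPM in DMSO libraries, most of it from PECAM1. Of these 9 markers, 5 were tested. PECAM1 and COL1A1 were called higher, CDH5 lower (log2 fold change -1.81), and COL1A2 and VWF were not called. The part of such RNA in the kinesin results was not tested.

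All 12 kinesins classed as mitotic fell with oridonin, by 1.26-fold to 1.73-fold. That class leaves out KIF2A, which also works at spindle poles and was not called. Of the 19 genes of cargo kinesins, 9 rose and 3 fell, with KIF3C, a kinesin-2 motor, 2.05-fold higher. Of the 10 other kinesins, KIF21B, KIF24 and KIF12 fell and KIF9 and KIF26B rose, and KIF1BP rose 1.15-fold. In all, 41 of the 42 genes passed the filter on low counts and were tested with edgeR's quasi-likelihood test. With a call set at an adjusted p under 0.05 (Benjamini-Hochberg, over the 15116 genes tested), 18 kinesin genes were lower and 12 higher, and 11 were not called. Over all genes tested, 41.9% were called, 21.3% lower and 20.6% higher. With library totals alone in place of TMM the split of all calls was 2359 lower and 4487 higher, against 3214 lower and 3118 higher, and the 12 mitotic kinesins were still lower. The median log2 fold change was -0.52 over the mitotic kinesins, 0.18 over the 19 cargo genes, 0.03 over the 9 tested other kinesins and 0.01 over all genes tested. KIF6, a kinesin of cilia, had 4 to 9 counts in oridonin libraries and 3 to 10 in DMSO libraries and was not tested.

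**Figure D1:**
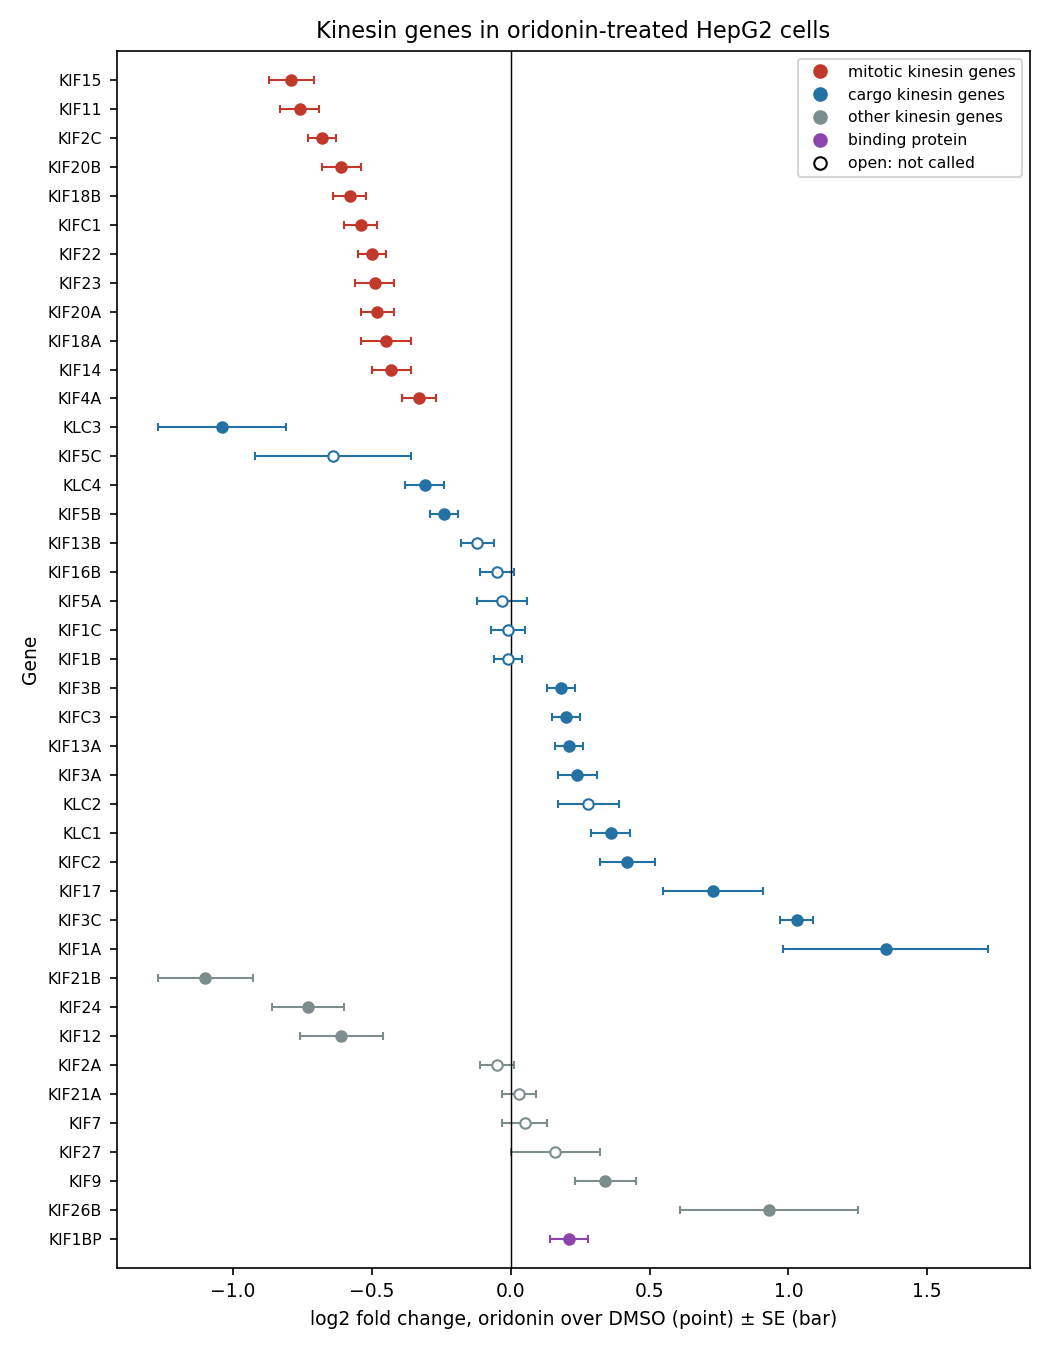
Log2 fold changes (oridonin over DMSO, edgeR) of the 41 tested genes on the horizontal axis, with genes down the page by class; points are fitted values, bars 1 standard error, and open points genes that were not called. The mitotic kinesins lie between -0.79 and -0.33, while the cargo genes run from KLC3 at -1.04 to KIF1A at 1.35.

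Promoters are shown because the mitotic members moved together. RefSeq promoter windows (GRCh38.p14, 250 bases before to 50 after a start) were found for 33 of the 42 genes. They were searched on both strands for the CCAAT box (CCAAT), to which the factor NF-Y binds, the cell cycle homology region or CHR (TTTGAA or TTCGAA), which cell cycle promoters share, E2F letters (TTCCCGC or TTGGCGC) and AP-1 letters (TGACTCA). The CCAAT box and the CHR letters do not overlap each other in the stretches below. Of the 12 mitotic kinesins, 10 held a CCAAT box and 10 a CHR, and 9 held both in the same window. By window, the CCAAT box was in 10 of 13 mitotic windows (76.9%), in 5 of 18 cargo windows (27.8%) and in 34.6% of all 35116 windows. The CHR letters were in 11 of 13 mitotic windows (84.6%), in 1 of 18 cargo windows (5.56%) and in 16.4% of all windows. The mitotic windows include overlapping windows of KIF22, in which the same CHR letters were counted more than once. The CCAAT box and the CHR together were in 69.2% of mitotic windows, 5.56% of cargo windows and 6.38% of all windows. For the windows of tested genes alone, the shares were 34.5% for the CCAAT box, 11.8% for the CHR, 4.71% for both, 13.2% for E2F letters and 3.64% for AP-1 letters. E2F letters were in 3 of 13 mitotic windows (23.1%), 4 of 18 cargo windows (22.2%) and 9.23% of all windows, and AP-1 letters in no kinesin window against 4.95% of all windows. These are matches of letters and were not tested as binding sites.

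Stretches from 150 bases before to 50 bases after the RefSeq start are given 5′ to 3′ on the strand of the gene, for the 5 mitotic kinesins with the smallest p among those with a single window, for KIF4A, which fell least among the mitotic kinesins, and for the cargo motors with the smallest p in each direction, KIF3C and KIF5B. Capitals mark the CCAAT box (ATTGG when it lies on the other strand) and the CHR (TTTGAA or, on the other strand, TTCAAA). The stretches lie at chr1:44739687-44739886 on the plus strand (KIF2C), chr3:44761644-44761843 plus (KIF15), chr10:92592980-92593179 plus (KIF11), chr17:44947724-44947923 minus (KIF18B), chr6:33391673-33391872 plus (KIFC1), chrX:70289954-70290153 plus (KIF4A), chr2:25982448-25982647 minus (KIF3C) and chr10:32056376-32056575 minus (KIF5B).
KIF2C: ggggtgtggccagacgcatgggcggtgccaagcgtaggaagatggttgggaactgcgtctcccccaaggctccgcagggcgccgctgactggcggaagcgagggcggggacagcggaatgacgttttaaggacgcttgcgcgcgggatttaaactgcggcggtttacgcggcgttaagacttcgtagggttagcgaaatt
KIF15: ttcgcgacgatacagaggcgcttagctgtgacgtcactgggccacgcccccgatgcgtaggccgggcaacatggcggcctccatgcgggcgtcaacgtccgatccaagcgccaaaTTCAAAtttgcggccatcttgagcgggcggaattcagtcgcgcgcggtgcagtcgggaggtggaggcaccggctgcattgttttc
KIF11: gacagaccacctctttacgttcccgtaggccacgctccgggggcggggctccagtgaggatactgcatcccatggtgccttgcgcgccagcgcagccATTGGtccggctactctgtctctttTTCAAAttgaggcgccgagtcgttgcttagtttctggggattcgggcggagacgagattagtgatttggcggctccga
KIF18B: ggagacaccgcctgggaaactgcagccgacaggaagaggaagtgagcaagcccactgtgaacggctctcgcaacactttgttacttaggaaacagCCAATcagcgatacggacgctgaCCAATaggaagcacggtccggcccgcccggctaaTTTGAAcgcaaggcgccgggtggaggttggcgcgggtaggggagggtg
KIFC1: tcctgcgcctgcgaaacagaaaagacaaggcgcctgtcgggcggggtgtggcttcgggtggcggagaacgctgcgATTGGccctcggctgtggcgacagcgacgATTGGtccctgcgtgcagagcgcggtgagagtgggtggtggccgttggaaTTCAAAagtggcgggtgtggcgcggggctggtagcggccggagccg
KIF4A: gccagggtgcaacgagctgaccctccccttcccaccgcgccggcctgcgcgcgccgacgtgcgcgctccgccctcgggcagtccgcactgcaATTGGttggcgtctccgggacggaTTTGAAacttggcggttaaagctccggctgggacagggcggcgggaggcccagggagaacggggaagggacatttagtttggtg
KIF3C: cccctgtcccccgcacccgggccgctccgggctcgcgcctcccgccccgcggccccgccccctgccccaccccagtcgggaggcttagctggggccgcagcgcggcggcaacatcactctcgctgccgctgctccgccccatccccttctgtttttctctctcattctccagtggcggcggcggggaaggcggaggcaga
KIF5B: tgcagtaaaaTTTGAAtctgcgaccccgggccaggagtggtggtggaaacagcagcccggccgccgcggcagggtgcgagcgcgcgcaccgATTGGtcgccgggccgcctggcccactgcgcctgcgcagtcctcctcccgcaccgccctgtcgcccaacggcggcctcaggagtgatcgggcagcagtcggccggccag
In KIF11, KIF18B, KIFC1 and KIF4A both elements begin between 75 bases before the start and base 5 after it. KIF15 holds a CHR and no CCAAT box, and KIF2C, whose p was the smallest of the mitotic kinesins, holds neither. KIF3C holds neither, while KIF5B holds a CCAAT box 59 bases and a CHR 140 bases before its start. KIF24, which is not in the mitotic class and also fell, held 3 CCAAT boxes and a CHR in its window. KIF12, which fell too, held CCAAT boxes and no CHR. The same was true of KIF1BP, which rose, and KIF3B, which rose, held 1 CCAAT box and no CHR. Of the 10 windows of other kinesins, 4 (40.0%) held a CCAAT box, 1 (10.0%) a CHR and 1 (10.0%) both.

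The motors that build the spindle, KIF11, KIF15 and KIFC1, all fell with oridonin. KIF11 (ENSG00000138160, hg38 chromosome 10, 92593286 to 92655395, plus strand), which slides spindle microtubules apart to separate the poles, had 45.1, 49.3 and 43.4 CPM in oridonin libraries and 84.7, 79.6 and 69.3 CPM in DMSO libraries. Here and below, CPM of single genes are scaled with TMM factors, which correct for the RNA make-up of each library. Every oridonin library lay below every DMSO library, a difference of -0.76 ± 0.07 on the log2 scale (SE, edgeR adjusted p = 5.43e-07). KIF15 (ENSG00000163808, chromosome 3, 44761717 to 44873376, plus strand), which can take over the work of KIF11, had 18.02, 19.4 and 19.4 CPM in oridonin libraries and 36.0, 33.0 and 29.4 CPM in DMSO libraries. Its log2 fold change, -0.79 ± 0.08 (SE, edgeR adjusted p = 3.75e-07), was the lowest of the mitotic kinesins. KIFC1, a minus-end motor that gathers microtubules at the poles, had 65.1, 65.9 and 73.0 CPM in oridonin libraries and 97.0, 95.5 and 103 CPM in DMSO libraries. It fell to 68.0 ± 4.37 CPM with oridonin, against 98.5 ± 4.06 CPM with DMSO (SD, n = 3; log2 fold change -0.54).

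Of the motors at kinetochores and on chromosomes, KIF2C had the smallest p. KIF2C (ENSG00000142945, chromosome 1, 44739818 to 44767767, plus strand), also called MCAK, takes microtubules apart at centromeres and frees wrong attachments. It had 53.3, 54.3 and 52.3 CPM in oridonin libraries and 87.0, 87.6 and 80.8 CPM in DMSO libraries, a log2 fold change of -0.68 ± 0.05 (SE, edgeR adjusted p = 3.64e-08). KIF18B, which works on the ends of astral microtubules, had 55.3, 49.2 and 54.7 CPM in oridonin libraries and 79.2, 76.0 and 83.4 CPM in DMSO libraries (log2 fold change -0.58). Its relative KIF18A, which damps the swings of chromosomes on the spindle, had 10.5, 10.5 and 9.25 CPM in oridonin libraries and 13.7, 14.2 and 13.5 CPM in DMSO libraries (log2 fold change -0.45). The treatments did not overlap in either gene. The chromokinesin KIF22, which pushes chromosome arms toward the equator, had 68.4, 64.0 and 69.8 CPM in oridonin libraries and 93.4, 94.6 and 97.9 CPM in DMSO libraries (log2 fold change -0.50 ± 0.05). KIF4A, a chromokinesin that also limits the length of midzone microtubules, had 40.3, 44.0 and 40.0 CPM in oridonin libraries and 53.3, 53.7 and 49.7 CPM in DMSO libraries. KIF4A had the smallest change of the mitotic kinesins, a log2 fold change of -0.33 ± 0.06 (SE, edgeR adjusted p = 0.000285). It shares 1.7% of its exon bases with PDZD11 on the opposite strand, which rose at 0.29. KIF18A and, of the motors below, KIF20A also overlap tested genes on the opposite strand, which were not called. KIF18A shares 1.31% with METTL15, at 16.5 CPM on average. KIF20A shares 3.34% with BRD8, at 50.1 CPM, and 1.72% with CDC23, at 41.5 CPM.

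The 4 motors of the midzone and of cytokinesis fell, with log2 fold changes between -0.61 and -0.43. KIF23, the motor of the centralspindlin complex, had 32.0, 33.0 and 29.8 CPM in oridonin libraries and 46.9, 46.7 and 40.1 CPM in DMSO libraries (log2 fold change -0.49 ± 0.07). KIF20A, which brings the chromosomal passenger complex to the midzone, had 38.7, 40.8 and 39.5 CPM in oridonin libraries and 57.1, 53.7 and 54.8 CPM in DMSO libraries (log2 fold change -0.48 ± 0.06). In both genes the lowest DMSO library stood above the highest oridonin library. KIF20B, needed late in cytokinesis, had 34.1, 32.3 and 31.6 CPM in oridonin libraries and 52.7, 51.7 and 44.9 CPM in DMSO libraries (log2 fold change -0.61 ± 0.07). KIF14, which works with citron kinase at the midbody, had 28.1, 27.4 and 25.9 CPM in oridonin libraries and 37.6, 38.0 and 34.5 CPM in DMSO libraries (log2 fold change -0.43 ± 0.07). For the 12 mitotic kinesins the treatments never overlapped. Of all tested genes, 51.6% did not overlap, of which those lower with oridonin were 25.6% of all tested. In bulk RNA, fewer cells in mitosis and less of a transcript per cell cannot be told apart.

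**Figure D2:**
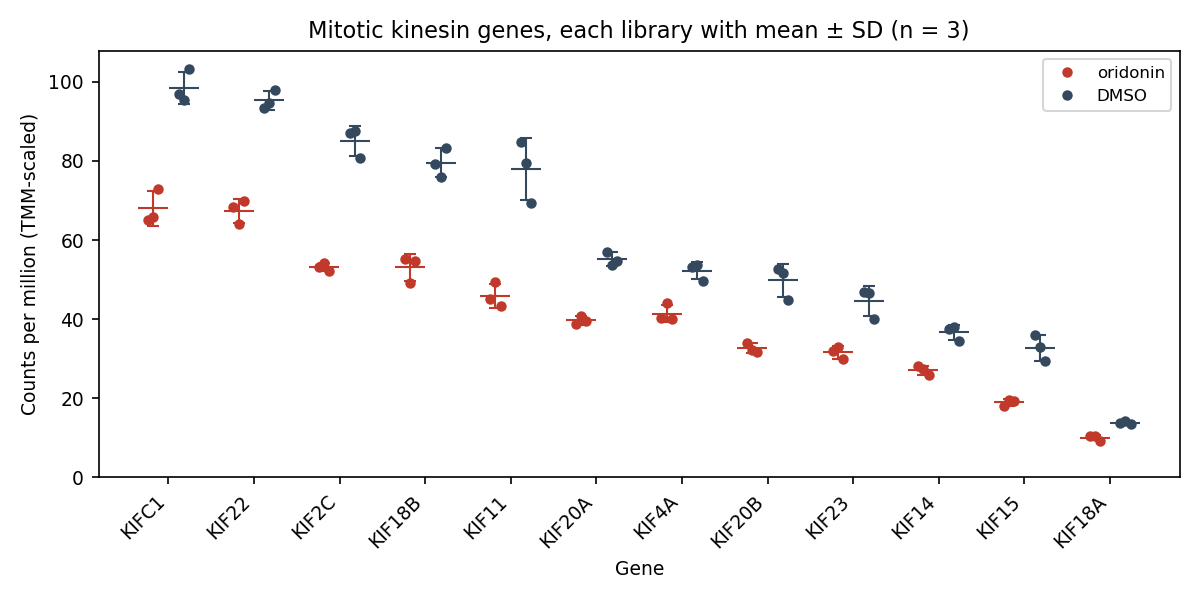
TMM-scaled CPM (vertical axis, from 0) of the 12 mitotic kinesins, with oridonin left of DMSO for each gene; points are libraries, and horizontal marks with bars the mean ± SD (n = 3). Each gene's oridonin points lie below all its DMSO points, from KIFC1 at a mean of 68.0 CPM with oridonin and 98.5 CPM with DMSO to KIF18A at 10.1 CPM with oridonin and 13.8 CPM with DMSO.

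Genes that work with the mitotic motors are shown for scale. Of 18 partner genes, 17 fell (94.4%) and 1 rose (5.56%), against 21.3% lower and 20.6% higher over all genes tested, and their median on the log2 scale was -0.50. PRC1, the crosslinker of midzone microtubules that recruits KIF4A, averaged 61.1 ± 2.04 CPM with oridonin and 99.3 ± 4.67 CPM with DMSO (SD, n = 3; log2 fold change -0.70). NUSAP1, a spindle protein, and AURKB, the kinase of the passenger complex, fell by 0.71 and 0.68 on the log2 scale. CENPE, a kinetochore kinesin whose symbol keeps it out of the KIF genes, averaged 29.8 ± 1.09 CPM with oridonin and 42.2 ± 2.71 CPM with DMSO, a log2 fold change of -0.50 ± 0.06 (SE, edgeR adjusted p = 9.7e-06). NUMA1, which anchors dynein at the spindle poles and also has a place in the interphase nucleus, was the partner that rose, at 0.19. Of 20 other cell cycle genes without motor function, 20 were lower, against 21.3% of all genes tested, with a median of -0.55 and a range from -0.91 (MKI67) to -0.17 (PTTG1). The range of the mitotic kinesins, -0.79 to -0.33, lay within that.

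**Figure D3:**
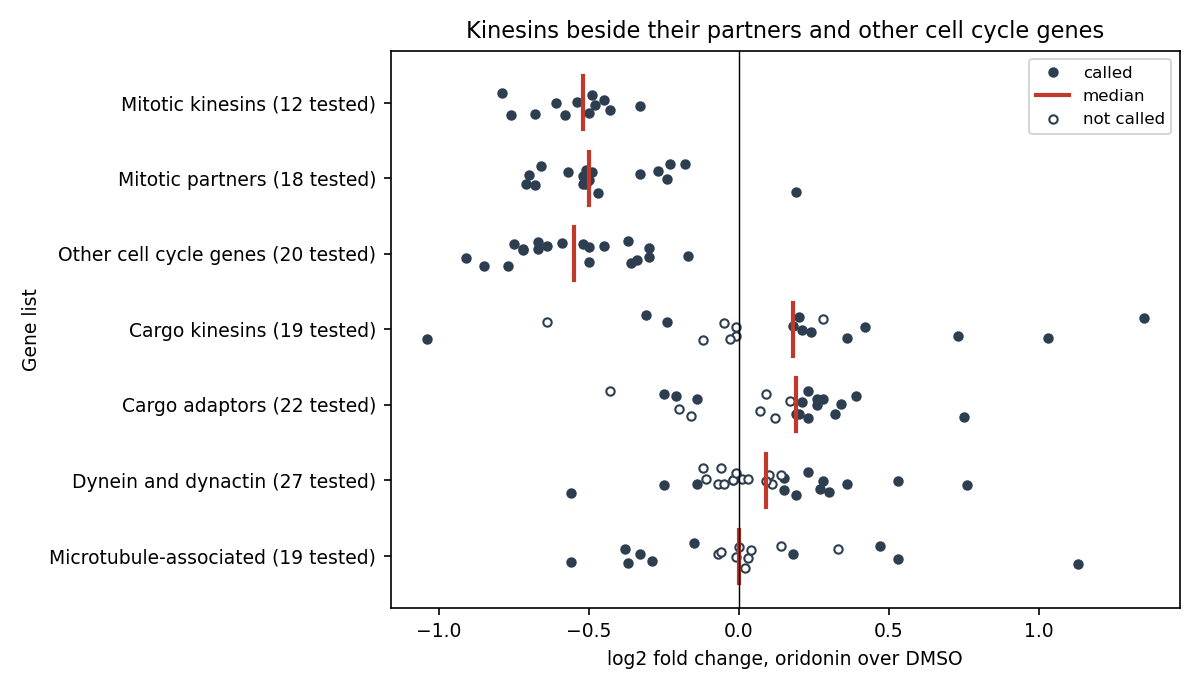
Log2 fold change (oridonin over DMSO) of each tested gene on the horizontal axis for 7 gene lists; points are genes, spread vertically at random for sight, filled when called, and the red mark is the median. Mitotic kinesins, their partners and other cell cycle genes have medians of -0.52, -0.50 and -0.55, and cargo kinesins and cargo adaptors medians of 0.18 and 0.19.

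Among the cargo carriers, each of the 4 kinesin-2 motors was called higher, against 20.6% of all genes tested. KIF3C (ENSG00000084731, chromosome 2, 25926596 to 25982749, minus strand), which pairs with KIF3A or with itself and is best known from neurons, had 83.7, 76.4 and 84.9 CPM in oridonin libraries and 36.9, 39.6 and 43.0 CPM in DMSO libraries. The groups were far apart relative to their spread, with a log2 fold change of 1.03 ± 0.06 (SE, edgeR adjusted p = 2e-09), and KIF3C ranked number 111 by p among the 15116 genes tested. Genes called with at least a 2-fold change made up 4.72% of those tested, 3.12% higher and 1.6% lower. KIF3B, which forms the motor of intraflagellar transport together with KIF3A, had 119.7, 123 and 127 CPM in oridonin libraries and 109, 112 and 105 CPM in DMSO libraries (log2 fold change 0.18 ± 0.05). KIF3A had 26.0, 26.2 and 24.6 CPM in oridonin libraries and 22.6, 21.6 and 20.9 CPM in DMSO libraries (log2 fold change 0.24 ± 0.07). Both rose, without overlap of the treatments. KIFAP3, the adaptor subunit of the KIF3A and KIF3B motor, averaged 12.5 ± 0.423 CPM with oridonin and 11.1 ± 0.413 CPM with DMSO and was not called (log2 fold change 0.17 ± 0.08, edgeR adjusted p = 0.112). KIF17, a homodimeric motor of cilia and dendrites, was scarce, with 3.58, 3.08 and 4.71 CPM in oridonin libraries and 1.87, 2.32 and 2.59 CPM in DMSO libraries (log2 fold change 0.73 ± 0.18).

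Per length, KIF3C took a larger part of kinesin-2 in every oridonin library than in any DMSO library. It took 35.1%, 32.7% and 34.2% of the summed FPKM of the 4 motors in oridonin libraries and 21.0%, 21.9% and 24.3% in DMSO libraries. KIF3B remained the most abundant, at 53.8% ± 1.23 with oridonin and 64.3% ± 1.61 with DMSO (SD, n = 3). KIF3A took 9.96% ± 0.585 with oridonin and 11.4% ± 0.563 with DMSO, and these shares were not tested.

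In kinesin-1, KIF5B, KLC3 and KLC4 fell and KLC1 rose. KIF5B (ENSG00000170759, chromosome 10, 32009010 to 32056431, minus strand), the heavy chain found in most tissues, had 243, 251 and 235 CPM in oridonin libraries and 287, 294 and 281 CPM in DMSO libraries. It fell with a log2 fold change of -0.24 ± 0.05 (SE, edgeR adjusted p = 0.000558), and no library overlapped. KIF5B made up 95.6% ± 0.36 of the summed heavy chain FPKM with oridonin and 96.1% ± 0.047 with DMSO. The neuronal heavy chain KIF5A had 11.5 ± 1.23 CPM with oridonin and 11.8 ± 0.336 CPM with DMSO (SD, n = 3), and was not called (log2 fold change -0.03 ± 0.09). KIF5C, also mainly neuronal, had 0.611 ± 0.137 CPM with oridonin and 0.945 ± 0.0687 CPM with DMSO and was not called (log2 fold change -0.64 ± 0.28, edgeR adjusted p = 0.0737), although its libraries did not overlap.

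The light chains link the KIF5 motors to cargo, and KLC2 had the highest FPKM of the 4. KLC2 had 123, 118 and 142 CPM in oridonin libraries and 94.7, 98.1 and 123 CPM in DMSO libraries. The treatments overlapped, and KLC2 missed the threshold (log2 fold change 0.28 ± 0.11, edgeR adjusted p = 0.062). Leaving out DMSO library 3 brought KLC2 past it, at 0.41 (edgeR adjusted p = 3.25e-05), as did 6 other settings. KLC1 had 31.3, 28.8 and 29.8 CPM in oridonin libraries and 21.4, 23.4 and 25.0 CPM in DMSO libraries, and rose with a log2 fold change of 0.36 ± 0.07 (SE, edgeR adjusted p = 0.000535). KLC4 fell to 22.2, 22.1 and 22.8 CPM in oridonin libraries, against 28.2, 29.6 and 25.3 CPM in DMSO libraries (log2 fold change -0.31 ± 0.07). KLC3, best known from sperm tails in rodents, had 0.973, 0.714 and 0.709 CPM in oridonin libraries and 1.64, 1.69 and 1.64 CPM in DMSO libraries (log2 fold change -1.04 ± 0.23). These light chain values are uncertain where the counting did not use strand. KLC1 shares 29.9% of its exon bases with XRCC3 on the opposite strand (log2 fold change -0.20, not called), KLC3 shares 14.6% with ERCC2, at 78.0 CPM on average, and KLC4 shares 5.12% with CUL7 and 5.81% with MRPL2. By summed FPKM, KLC2 took 81.5% ± 1.30 of the light chains with oridonin and 76.1% ± 3.21 with DMSO, and KLC4 took 12.2% ± 0.778 with oridonin and 17.3% ± 2.85 with DMSO (SD, n = 3). The share of KLC1 depends on the deposited gene length of 19251 bases.

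**Figure D4:**
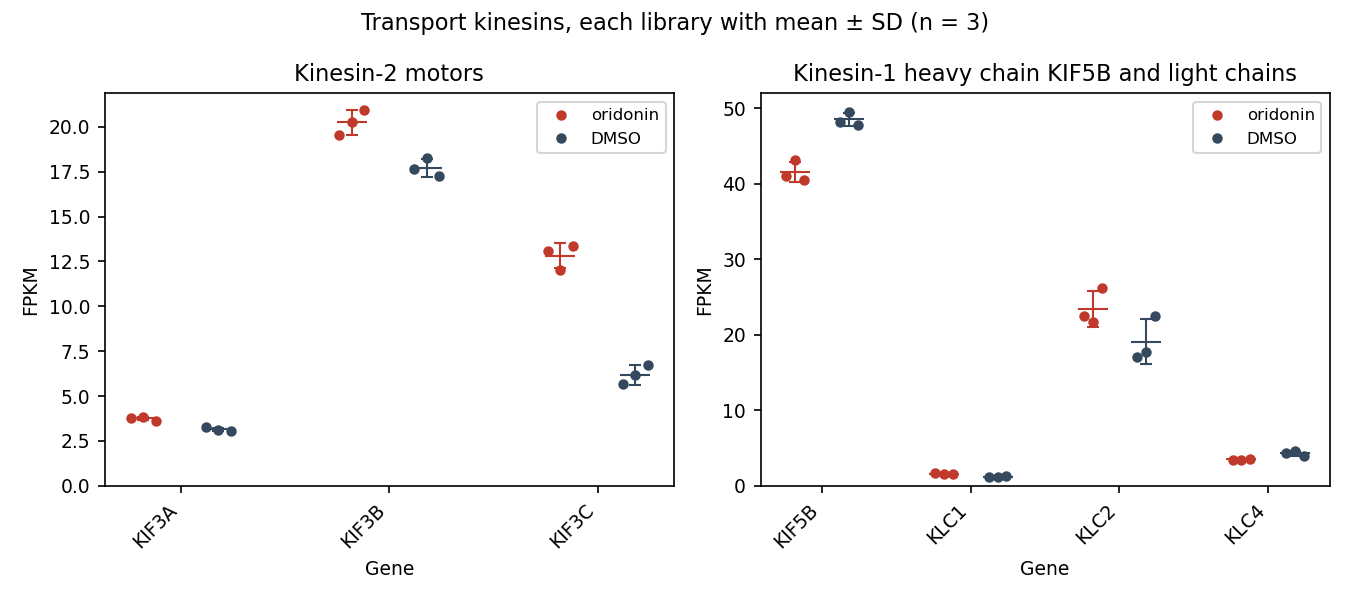
FPKM (vertical axis, from 0) of KIF3A, KIF3B and KIF3C on the left and of KIF5B, KLC1, KLC2 and KLC4 on the right. The kinesin-2 motor KIF17 and the light chain KLC3 are not plotted. Oridonin lies left of DMSO for each gene, points are libraries, and horizontal marks with bars the mean ± SD (n = 3). KIF3C lies at 12.04 to 13.4 FPKM with oridonin and 5.66 to 6.73 FPKM with DMSO, and KIF5B at 40.5 to 43.1 FPKM with oridonin and 47.8 to 49.5 FPKM with DMSO.

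Of the 6 kinesin-3 carriers, KIF13A and KIF1A rose and the others were not called. KIF13A, a motor of recycling endosomes, had 96.8, 92.8 and 88.3 CPM in oridonin libraries and 79.9, 77.9 and 82.2 CPM in DMSO libraries (log2 fold change 0.21 ± 0.05). KIF1A, a carrier of synaptic vesicle precursors in neurons, was barely expressed, with 33, 40 and 35 counts in oridonin libraries and 9, 5 and 22 counts in DMSO libraries. It rose by 1.35 ± 0.37 on the log2 scale (SE, edgeR adjusted p = 0.00696), but limma on log2 FPKM missed the threshold (1.63, adjusted p = 0.0737). Leaving out DMSO library 3 gave 2.07, and leaving out DMSO library 2 gave 0.93. KIF1C, which carries vesicles and messenger RNA, was the second most abundant motor per length and had 339, 323 and 368 CPM in oridonin libraries and 324, 336 and 374 CPM in DMSO libraries. The treatments overlapped, with a log2 difference of -0.01 ± 0.06 (SE, edgeR adjusted p = 0.945). KIF1B and KIF16B, a motor of early endosomes, had log2 fold changes of -0.01 ± 0.05 and -0.05 ± 0.06. KIF13B had 44.2, 41.1 and 43.6 CPM in oridonin libraries and 47.3, 44.6 and 48.1 CPM in DMSO libraries (log2 fold change -0.12 ± 0.06, edgeR adjusted p = 0.122). The treatments did not overlap in KIF13B, although it was not called.

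The minus-end motors of the cargo class both rose. KIFC3, found at adherens junctions and the Golgi, had 94.8, 95.5 and 103 CPM in oridonin libraries and 82.1, 84.4 and 89.4 CPM in DMSO libraries (log2 fold change 0.20 ± 0.05). KIFC2 had 34.6, 30.3 and 41.5 CPM in oridonin libraries and 24.6, 28.4 and 26.4 CPM in DMSO libraries (log2 fold change 0.42 ± 0.10). The lowest oridonin library of KIFC2, at 30.3 CPM, lay above the highest DMSO library, at 28.4 CPM. The gene shares 17.8% of its exon bases with FOXH1, a gene at 0.149 CPM.

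Among kinesins outside both classes, KIF21B, which slows microtubule growth in neurons and lymphocytes, fell most. It had 1.51, 1.36 and 2.02 CPM in oridonin libraries and 3.46, 3.30 and 3.65 CPM in DMSO libraries, a log2 fold change of -1.10 ± 0.17 (SE, edgeR adjusted p = 8.42e-05). KIF24, which shares 2.33% of its exon bases with UBAP1 on the opposite strand (not called), is a kinesin of the mother centriole that restrains cilium growth. It had 4.46, 3.41 and 3.69 CPM in oridonin libraries and 6.83, 5.83 and 6.61 CPM in DMSO libraries (log2 fold change -0.73 ± 0.13). KIF12, in which variants cause a cholestatic liver disease, had 3.55, 4.02 and 5.32 CPM in oridonin libraries and 5.65, 7.55 and 6.21 CPM in DMSO libraries (log2 fold change -0.61 ± 0.15). All 3 were at low levels in both treatments, without overlap. KIF9, a kinesin of motile cilia, had 8.60, 7.53 and 8.12 CPM in oridonin libraries and 5.65, 7.09 and 6.28 CPM in DMSO libraries (log2 fold change 0.34 ± 0.11). KIF9 was not called with DESeq2 (adjusted p = 0.0757), with limma, or when library 1 of either treatment was left out. On the opposite strand it shares 14.9% of its exon bases with KIF9-AS1, at 1.29 CPM (log2 fold change -0.09, not called), and 3.04% with KLHL18, which rose at 0.49. KIF26B, a kinesin that binds microtubules without moving, had 30, 27 and 19 counts in oridonin libraries and 7, 11 and 16 counts in DMSO libraries (log2 fold change 0.93 ± 0.32), and was not called with DESeq2 (adjusted p = 0.144). It was also not called with limma, or when library 1 or 2 of either treatment was left out.

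KIF2A, KIF21A, KIF7 and KIF27 were not called. KIF2A, a microtubule depolymerase used at spindle poles and in neurons, was put outside the mitotic class despite its spindle role. KIF2A had 46.2, 49.8 and 43.1 CPM in oridonin libraries and 46.1, 50.7 and 47.6 CPM in DMSO libraries (log2 fold change -0.05 ± 0.06). It shares 8.97% of its exon bases with IPO11 on the same strand, which fell (log2 fold change -0.25), so its value is uncertain whether or not the counting used strand. KIF21A, which works at the cell cortex, had 66.2, 68.6 and 62.4 CPM in oridonin libraries and 66.6, 64.1 and 62.0 CPM in DMSO libraries (log2 fold change 0.03 ± 0.06). The treatments overlapped in all 4. KIF7, a regulator of Hedgehog signalling at the tip of the cilium, and its relative KIF27 had log2 fold changes of 0.05 ± 0.08 and 0.16 ± 0.16. KIF7 shares 11.8% of its exon bases with TICRR on the opposite strand, which fell by 0.85 on the log2 scale. KIF1BP, which holds some kinesins off the microtubule, had 40.2, 42.5 and 38.7 CPM in oridonin libraries and 34.4, 37.9 and 32.9 CPM in DMSO libraries (log2 fold change 0.21 ± 0.07). It was not called without DMSO library 1 (adjusted p = 0.0616), DMSO library 3 (0.0659) or oridonin library 2 (0.091).

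Some subfamilies hold mitotic and non-mitotic members by class, and chosen pairs were compared within each library on the log2 FPKM scale. Other members outside the mitotic class were not paired, and some of these fell as well. KIF21B of kinesin-4 fell at -1.10 against -0.33 for KIF4A, and KIF24 of kinesin-13 at -0.73 against -0.68 for KIF2C. In kinesin-12, KIF12 fell at -0.61 and KIF15 at -0.79. KIF7 and KIF27 of kinesin-4 were not called, while KIF13A and KIF1A of kinesin-3 and KIFC2 of kinesin-14 rose. KIF2C and KIF2A are both kinesin-13 depolymerases. KIF2C exceeded KIF2A, with the overlap named above, by 0.60, 0.52 and 0.67 in oridonin libraries and by 1.31, 1.18 and 1.15 in DMSO libraries, a change of -0.62. KIFC1 exceeded KIFC3 by 0.98, 0.99 and 1.02 in oridonin libraries and by 1.77, 1.69 and 1.73 in DMSO libraries, a change of -0.73. The change was -0.37 for KIF4A against KIF21A of kinesin-4, and -0.32 for KIF14 against KIF13B of kinesin-3. KIF14 was close to KIF13B with oridonin, at -0.04, 0.02 and -0.14, and above it with DMSO, at 0.28, 0.38 and 0.14. Between the light chain KLC1 and the heavy chain KIF5B the difference was -4.66, -4.84 and -4.69 in oridonin libraries and -5.46, -5.36 and -5.20 in DMSO libraries, a change of 0.61. The treatments did not overlap in any of the 5 pairs, and of all single genes tested 51.6% did not overlap. Each pair holds a gene that was called on its own, so these differences are not separate from those calls. The exact permutation test (two-sided) gave p = 0.1 for each pair and an adjusted p = 0.1 over the 5 pairs. With 3 against 3 libraries, 0.1 is the smallest p it allows.

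Summed per length over the 37 motors, the mitotic kinesins made up 36.3%, 36.7% and 36.0% of motor FPKM in oridonin libraries and 47.3%, 46.2% and 45.5% in DMSO libraries. Cargo motors made up 55.4% ± 0.648 with oridonin and 46.2% ± 0.838 with DMSO (SD, n = 3). A share also rises when the rest of the total falls. The cargo motors summed to 167, 165 and 173 FPKM in oridonin libraries and 156, 161 and 164 FPKM in DMSO libraries. The mitotic kinesins summed to 109, 110 and 111 FPKM in oridonin libraries and 163, 161 and 159 FPKM in DMSO libraries. The sum over all motors was 301, 301 and 309 FPKM in oridonin libraries and 344, 348 and 349 FPKM in DMSO libraries. By mean FPKM the leading motors with oridonin were KIF5B (41.6), KIF1C (40.2), KIFC1 (20.4) and KIF3B (20.3), and with DMSO KIF5B (48.5), KIF1C (39.9), KIFC1 (29.3) and KIF2C (23.2). KIF5B and KIF1C overlapped in FPKM with oridonin but not with DMSO.

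**Figure D5:**
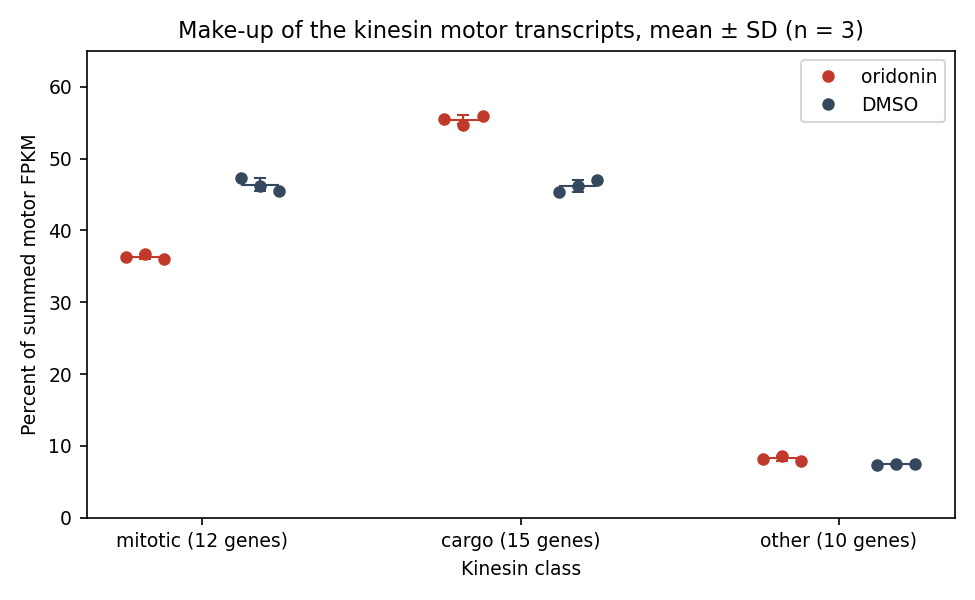
Percent of the summed FPKM of 37 kinesin motors (vertical axis, from 0) taken by the mitotic, cargo and other classes, with oridonin left of DMSO; points are libraries, and horizontal marks with bars the mean ± SD (n = 3). The mitotic share is 36.0% to 36.7% with oridonin and 45.5% to 47.3% with DMSO, and the cargo share 54.7% to 56.0% with oridonin and 45.4% to 47.1% with DMSO. These shares were not tested.

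Adaptors that tie kinesins to cargo were listed together with regulators and cargo proteins, and the list counts the member KIF1BP again. Of the 22 tested genes of this list, 12 were higher (54.5%) and 3 lower (13.6%), and their median on the log2 scale was 0.19. Over all genes tested, 20.6% were higher and 21.3% lower, and the median was 0.01. TRAK2, which links kinesin-1 to mitochondria, averaged 50.5 ± 3.09 CPM with oridonin and 38.5 ± 1.95 CPM with DMSO (SD, n = 3; log2 fold change 0.39). FYCO1, an adaptor of late endosomes and autophagosomes, and KIDINS220, a kinesin-1 cargo, rose at 0.34 and 0.26. CLSTN1, a membrane cargo adaptor that binds the light chains, RHOT1, the mitochondrial anchor of TRAK proteins, and KTN1, a kinesin receptor of the endoplasmic reticulum, fell at -0.25, -0.21 and -0.14. Of 27 tested genes of dynein, which moves toward the minus end, its cofactor dynactin and their adaptors, 10 rose (37.0%) and 3 fell (11.1%), against the same 20.6% and 21.3% of all genes, and the median was 0.09. DYNLT1, BICD1 and ACTR10 rose at 0.53, 0.76 and 0.36, and HOOK1, NDEL1 and CAPZB fell at -0.56, -0.25 and -0.14. Of 19 tested microtubule-associated proteins, 4 were higher (21.1%) and 6 lower (31.6%), and the share of higher genes was close to the 20.6% of all genes. STMN1, which binds free tubulin, CKAP5, a microtubule polymerase, and MAP7D2 fell at -0.56, -0.37 and -0.38, and MAPRE3, CAMSAP2, a minus-end binder, and MAP7D1, a cofactor of kinesin-1, rose at 1.13, 0.53 and 0.47.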

How the data were processed

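RNA of 3 oridonin libraries was compared with RNA of 3 DMSO libraries, grouped by the sample titles. The authors deposited raw counts per gene for 60504 Ensembl genes and log2 FPKM values for 18404 genes, which were those with at least 1 count in every library. The submitters' processing notes name hg38 as the build and list DESeq2 (1.10.1). The aligner, the counter and its use of strand were not given in the sources used here, and reads of overlapping or near-identical genes may have been assigned to either.

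Counts were tested with edgeR 4.0.16 in R 4.3.3 (filterByExpr, TMM scaling, robust glmQLFit, glmQLFTest, treatment as the only term), with Benjamini-Hochberg adjustment over all genes. The SE is the size of the log2 fold change divided by the square root of F. The code was tested on simulated data. Alternatives used DESeq2 1.42.0 and limma 3.58.1. FPKM are the deposited values taken out of log2. Exon overlaps come from GENCODE annotation on the same build. Promoter sequences are from RefSeq.

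Every kinesin gene was accounted for, with values per library for all mitotic kinesins, for called members and for paired members. Promoter stretches follow the smallest p, which is not the same as the largest change. KIF5B, at -0.24, changed least of the cargo genes called lower. Partner lists name up to 3 called genes per direction with the smallest p, and CENPE. The members, lists, roles and motifs were chosen with earlier results of these data known.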

Additional observations from a re-analysis of the deposited data

How the results depend on the processing

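The counts of mitotic kinesins called lower (12) and higher (0), of cargo genes called in each direction and of all genes called stayed within 1.5 times under the 14 other settings, and the 5 pair differences kept their direction with 1 FPKM added and with each library left out. The other kinesins called numbered 5, against 3 with DESeq2, 3 with limma on log2 FPKM, 3 with limma on log2(FPKM + 1), and 3 to 5 when each library was left out in turn (3 without DMSO replicate 1 or without oridonin replicate 1). Sign changed only in genes that were not called. With total counts in place of TMM, log2 fold changes were 0.03 for KIF16B, 0.07 for KIF1B, 0.07 for KIF1C, 0.03 for KIF2A and 0.05 for KIF5A, and the median of all genes was 0.09 against 0.01. KIF1B and KIF1C were each at 0.01 with no filter, with limma on log2 FPKM and with limma on log2(FPKM + 1). With each library left out in turn, KIF1B ranged from -0.05 to 0.02, KIF1C from -0.06 to 0.05, KIF5A from -0.11 to 0.05 and KIF7 from -0.02 to 0.12. The causes were not tested. Same-numbered libraries deviated with correlations of 0.194, 0.0651 and 0.173, and each library correlated best with its own number, a hint from the data and not the design. The fit with the replicate block called 7689 genes against 6332, and it called KLC2 (0.28) and KIF13B (-0.12) as well. A filter of at least 1 CPM on average left KIF1A, KIF26B and KIF5C with no value. Depth limits KIF1A, KIF26B, KIF5C and KLC3, which had at most 48 counts per library.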
